A study of Mus musculus with 4 samples.

Results

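The 47 genes described here encode glycoproteins and proteoglycans of the extracellular matrix and the lysyl oxidases that crosslink it. They were chosen from a list of gene names that covers laminins, nidogens, fibulins, fibronectin, thrombospondins, small proteoglycans and lysyl oxidases, matched to the array's gene symbols with case ignored, and every probe of each gene is reported. All 47 were on the array, at 58 probes, among the 17734 genes and 26408 probes that were analysed. RNA came from 3T3-L1, mouse preadipocytes in culture that become adipocytes once an induction mixture is added. In 2 samples the cells received the mixture together with 13.47 µM berberine, a plant alkaloid, for 48 hours, and in 2 control samples they received the mixture alone for 48 hours. All 4 samples share the mixture, which is made of 1 µg/ml insulin, 1 µM dexamethasone and isobutylmethylxanthine at 0.5 mM. Groups were taken from the sample titles, because the treatment text in the labels is the same for all samples and names berberine for the controls too. Cells without the mixture were not analysed here, so the comparison is of induced cells with and without the alkaloid. The labels do not state whether the replicates are separate cultures. Each p-value therefore covers just the variation among these 4 arrays, and that variation may be technical.

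The extracellular matrix is the network of secreted proteins that cells attach to. Fibronectin and the fibrillar collagens form the loose matrix around fibroblasts and preadipocytes, microfibrils of fibrillin carry elastin, and small leucine-rich proteoglycans bind collagen fibrils and set their spacing. Laminins, nidogens and perlecan build the basement membrane that surrounds each mature fat cell. Preadipocytes are known to exchange a fibronectin-rich matrix for a laminin-rich one as they differentiate, and lysyl oxidases, which oxidise lysines of collagen and elastin, stiffen the matrix of both.

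Across probes, Pearson's r was 0.994 between the 2 berberine arrays, 0.991 between the 2 control arrays and 0.912 to 0.918 for arrays of different groups. Over the whole array 17.7% of probes were lower and 27.1% higher, and the marker counts here are to be read beside these shares. Adipocyte markers were lower at 9 of 13 probes with berberine and higher at 2. Their summed intensity was 33304 to 36439 with berberine and 587707 to 609701 in control. Adipoq, the hormone adiponectin, read 1464 and 1525 with berberine, against 192925 and 181090 in control. Fabp4, a fatty acid binding protein, read 26986 and 28843 with berberine, against 191849 and 202404 in control. Cebpa, an adipogenic transcription factor, read 692 and 669 with berberine, against 4353 and 4813 in control. The 2 berberine arrays were below both control arrays for each of these 3 genes, and groups did not overlap at 74.8% of all probes. Other adipocyte markers went the other way. Lipe read 1842 and 1887 with berberine, against 994 and 861 in control, and was higher. Pparg was also called higher, but was under the floor in both groups. Retn and 1 probe of Cd36 did not pass. Of 10 probes for preadipocyte or fibroblast markers, 4 were higher, 3 lower and 3 not past the threshold. The higher ones were of Pdgfrb, Cd34, Col1a1 and Col1a2, and the lower ones of Pdgfra, Col3a1 and Dlk1. Another Dlk1 probe, S100a4 and Vim did not pass. Vim, the fibroblast filament protein vimentin, read 138112 and 146386 with berberine, against 138705 and 166207 in control, so this marker of the labelled line was bright in both groups. Among markers of other cell types, 4 of 5 probes for smooth muscle genes were higher. The 5 probes summed to 154250 to 197904 with berberine and 71554 to 76665 in control. Nearly all of that sum was Acta2, whose brighter probe read 185643 and 142204 with berberine, against 72495 and 67413 in control. Tagln and Des were higher but far dimmer, and Cnn1 was under the floor in both groups and did not pass. The 6 macrophage probes summed to 1115 to 1209 with berberine and 1075 to 1252 in control, with 1 higher and 1 lower. The 7 endothelial probes summed to 1553 to 1660 with berberine and 1098 to 1135 in control, with 3 higher. The 5 epithelial probes summed to 1094 to 1114 with berberine and 1265 to 1378 in control, with 1 lower. In bulk RNA of this kind, fewer cells of a type and less RNA per cell cannot be told apart. Whether the shift in adipocyte or smooth muscle genes has a part in the changes of matrix genes was not tested.

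Berberine-treated cells had lower signals of fibronectin, at its only probe, and of most small leucine-rich proteoglycans. Signals of osteopontin, fibulin 5 and most probes of lysyl oxidase-like 4 were higher. Values are quantile-normalized probe intensities, changes are on the log2 scale (berberine minus control), and a probe was called when limma's p, adjusted by Benjamini-Hochberg over all 26408 probes, was under 0.05. Of the 58 probes, 26 were lower, 18 were higher and 14 did not pass. Over the whole array 17.7% of probes were lower and 27.1% higher, against 44.8% and 31% of the probes of these genes. With probes under the floor in both groups left out, the array-wide shares were 20.9% lower and 32.6% higher. Above a mean of log2 10 they were 51.4% lower and 32.4% higher of 37 probes of these genes, against 23% lower and 37.7% higher of 8925 probes in all. By gene, 23 of 47 had a lower probe, 15 had a higher one and 9 had none that passed, with probes under the floor in both groups set aside. The same count by gene was not made for the whole array. The floor was the 25th percentile of normalized intensity on an array, 95.3, below which a probe was taken as dim. A fold is given as "at least" where 1 group averaged under that value, which then takes its place.

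The direction of small changes depended on how the arrays were scaled. Across all probes the median log2 change was 0.17 with quantile normalization, 0.26 with scaling on the 75th percentile, 0.52 with each array centred on its median and -0.05 in the values as deposited. Over the 58 probes the medians were -0.11, -0.15, 0.11 and -0.46 in the same order. Lower and higher calls among the 58 probes numbered 20 and 9 in the deposited values, 20 and 15 after scaling on the 75th percentile and 18 and 22 after centring, against 4291 and 2396, 3692 and 5570, and 3311 and 10694 over all probes (16.2% and 9.07%, 14% and 21.1%, 12.5% and 40.5%). Leaving out an array also moved the counts. Without berberine replicate 1 or 2, fewer lower and fewer higher calls remained among the 58 probes. Shares of all probes by direction were not worked out for these fits.

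A core of 16 probes of 13 genes was called in the same direction under all 4 scalings and with each of the 4 arrays left out. The 12 lower probes belonged to Fn1, Thbs2, Tnc, Sparcl1, Fbln2, Dcn, Lum, Aspn, Lama4 and Loxl3, and the 4 higher probes to Spp1, Fbln5 and Loxl4. Those are 20.7% and 6.9% of the 58 probes, against 7.38% and 3.75% of all probes. Calls at least 2-fold numbered 19 lower and 9 higher probes, or 32.8% and 15.5%, against 11.1% and 10.8% of all probes. At least 8-fold lower were 5 probes, or 8.62%, against 2.92% of all probes and 3.68% of those above the floor in a group. The 58 probes were brighter than the array, with a median log2 control intensity of 11.96 against 8.30. The shares in this paragraph were not matched for that level.

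**Figure D1:**
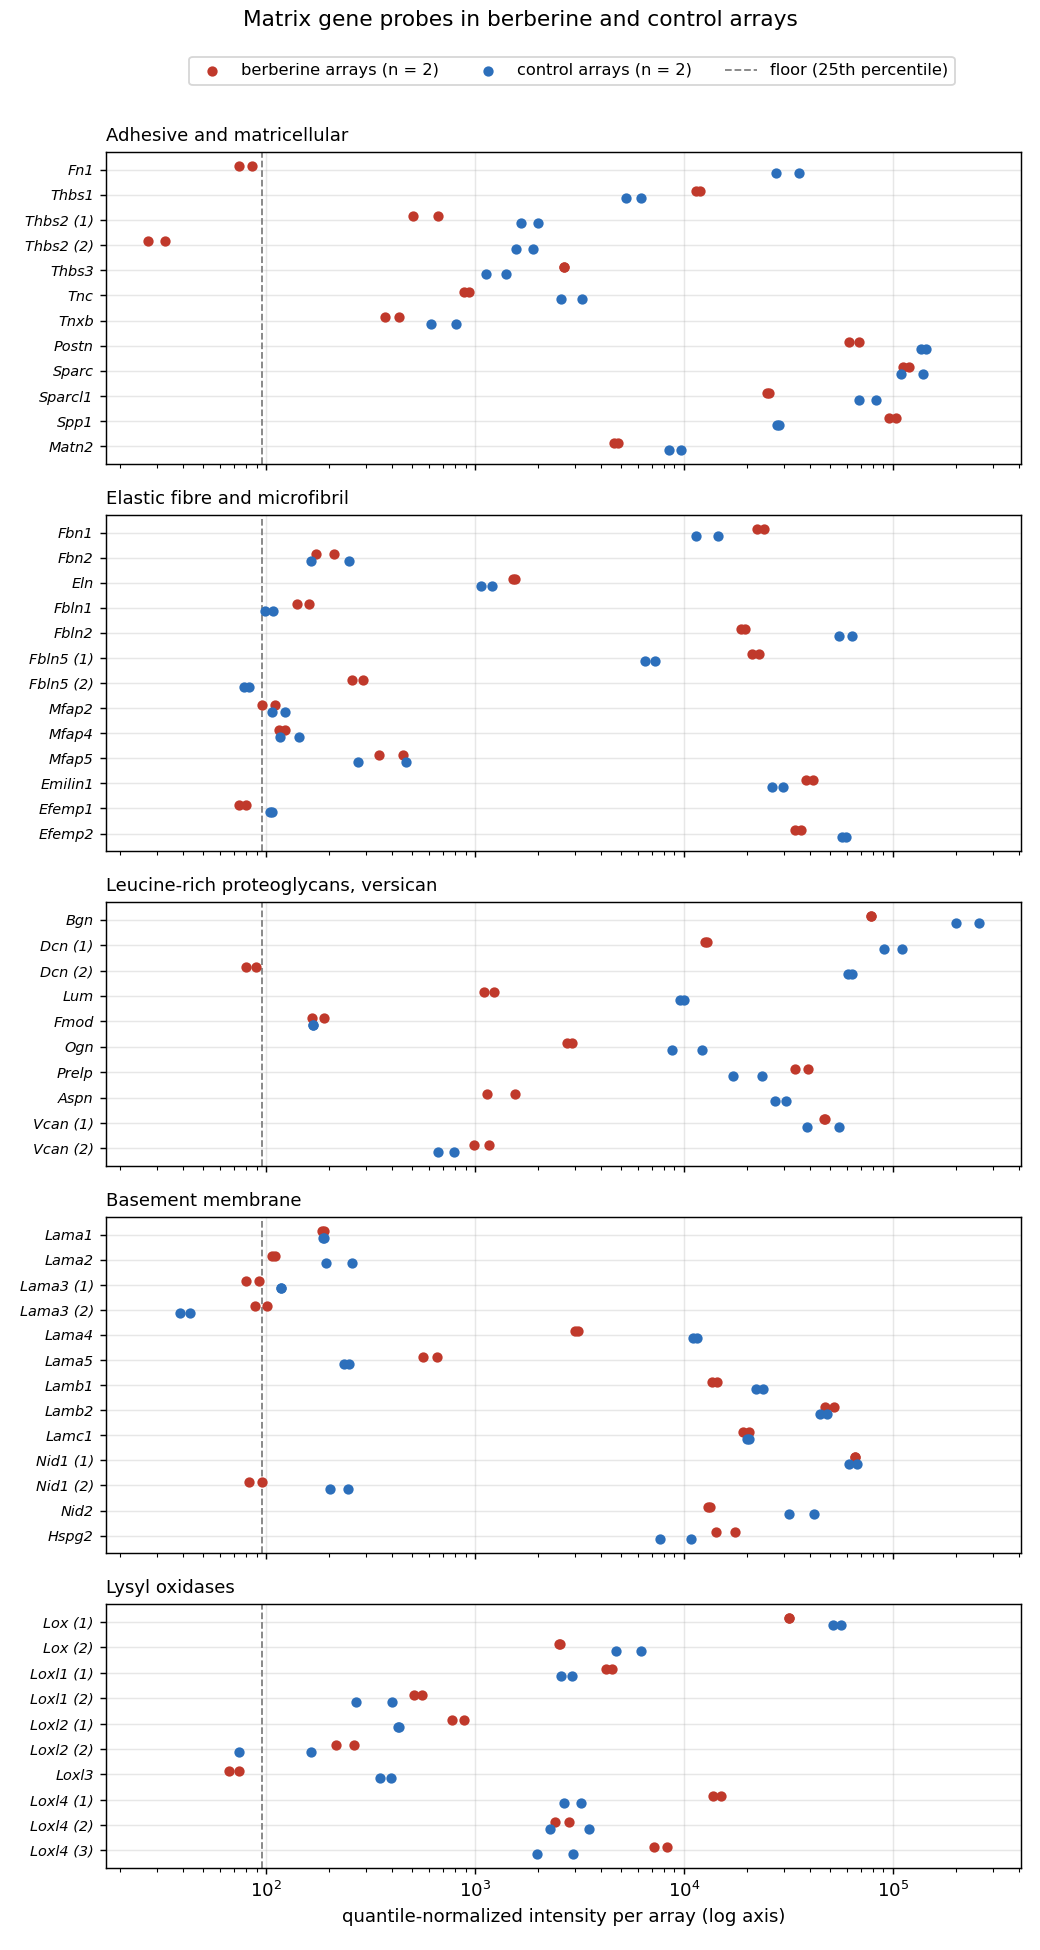
Quantile-normalized intensity (log axis) of each probe on the 2 berberine arrays (red) and the 2 control arrays (blue), by role, with the floor of 95.3 dashed; numbers in brackets mark the probes of a gene in order of control intensity. For Fn1 and the second Dcn probe the berberine points lie under the floor and the control points far above it, and for Spp1, Fbln5 and the first Loxl4 probe the berberine points lie to the right of the control points.

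Promoters of 6 genes that moved are shown because 3 fell and 3 rose in the same arrays. The sequences are the 250 bases before the annotated start, from RefSeq on GRCm38.p6, 5′ to 3′ along the gene. A promoter was found in the RefSeq table for 28 of the 47 genes. Capitals mark matches, on either strand, to 8 motifs: the TATA motif TATAAA, the CAAT box CCAAT, the GC box GGGCGG, the AP-1 site TGANTCA, the cAMP response element TGACGTCA, the C/EBP site TTGCGCAA, the composite C/EBP-ATF site TTGCATCA and the E-box CACGTG. Overlapping matches are merged in the capitals. Aspn (asporin), Ogn (osteoglycin) and Bgn (biglycan), all small leucine-rich proteoglycans, were lower. Spp1 (osteopontin), Fbln5 (fibulin 5) and Loxl4 (a lysyl oxidase) were higher.
Aspn, chr13:49544193-49544442, plus strand: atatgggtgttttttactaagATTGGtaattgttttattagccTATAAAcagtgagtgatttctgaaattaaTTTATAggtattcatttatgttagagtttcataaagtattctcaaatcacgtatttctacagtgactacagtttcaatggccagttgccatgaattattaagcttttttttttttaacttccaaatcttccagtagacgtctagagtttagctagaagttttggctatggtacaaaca
Ogn, chr13:49607765-49608014, plus strand: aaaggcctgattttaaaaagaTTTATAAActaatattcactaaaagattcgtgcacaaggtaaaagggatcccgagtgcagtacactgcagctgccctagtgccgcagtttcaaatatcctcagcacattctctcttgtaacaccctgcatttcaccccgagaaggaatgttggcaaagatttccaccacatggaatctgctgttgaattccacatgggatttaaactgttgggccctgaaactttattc
Bgn, chrX:73483351-73483600, plus strand: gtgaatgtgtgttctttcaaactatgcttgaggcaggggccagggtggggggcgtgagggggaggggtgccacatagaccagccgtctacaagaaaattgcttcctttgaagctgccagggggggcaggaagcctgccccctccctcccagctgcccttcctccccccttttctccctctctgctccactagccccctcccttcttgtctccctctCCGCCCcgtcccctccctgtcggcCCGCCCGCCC
Spp1, chr5:104434861-104435110, plus strand: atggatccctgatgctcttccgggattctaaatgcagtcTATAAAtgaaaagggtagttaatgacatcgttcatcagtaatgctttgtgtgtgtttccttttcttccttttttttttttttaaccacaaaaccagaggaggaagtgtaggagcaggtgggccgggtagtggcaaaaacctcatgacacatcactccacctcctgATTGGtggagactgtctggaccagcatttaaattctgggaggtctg
Fbln5, chr12:101819120-101819369, minus strand: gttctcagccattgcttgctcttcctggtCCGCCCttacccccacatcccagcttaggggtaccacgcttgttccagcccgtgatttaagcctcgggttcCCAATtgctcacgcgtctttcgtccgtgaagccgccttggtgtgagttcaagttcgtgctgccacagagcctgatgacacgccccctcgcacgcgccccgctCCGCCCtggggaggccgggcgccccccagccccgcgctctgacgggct
Loxl4, chr19:42612807-42613056, minus strand: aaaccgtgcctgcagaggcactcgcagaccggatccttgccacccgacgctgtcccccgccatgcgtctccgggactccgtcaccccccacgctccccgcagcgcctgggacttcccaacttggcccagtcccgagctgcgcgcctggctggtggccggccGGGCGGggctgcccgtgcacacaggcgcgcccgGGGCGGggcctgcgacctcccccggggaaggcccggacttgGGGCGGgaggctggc

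The promoters of the proteoglycans that fell did not share 1 base composition, since G and C made up 30% of the Aspn stretch, 42% of that of Ogn and 64.4% of that of Bgn. Among the genes that rose the share was 43.6% for Spp1, 65.2% for Fbln5 and 76% for Loxl4. TATAAA was found in 5 of the 28 promoters (Aspn, Ogn, Spp1, Thbs2 and Tnc), 4 of 13 among genes that fell and 1 of 11 among genes that rose, against 13% of the 27024 promoters of all genes. The GC box was found in 14 of 28, 7 of 13 and 7 of 11, against 33% of all promoters, and CCAAT in 10 of 28, 4 of 13 and 5 of 11, against 34.5%. AP-1 sites were found at Efemp1 and Tnxb (6.85% of all promoters) and an E-box at Fbln1 (6.04%). The cAMP response element, the C/EBP site and the composite site were in none of the 28 (1.6%, 0.17% and 0.825% of all promoters). A match is a description of these letters in this window, and no test was made.

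Adhesive and matricellular glycoproteins link cells to the matrix or tune that contact. Among them 8 of 12 probes were lower, 3 were higher and 1 did not pass, with a median log2 change of -1.02. Array-wide, 17.7% of probes were lower and 27.1% higher. Fn1, fibronectin, the main adhesive protein of the fibroblast matrix, read 85.3 and 74.5 with berberine, against 35420.3 and 27531 in control. Both berberine arrays were under the floor and both control arrays far above it, a fall of at least 328-fold (log2 change -8.61, SE 0.18, adjusted p = 5.77e-05), and the gene has no other probe here. Thbs2, a thrombospondin that binds matrix metalloproteinases and growth factors, read 503 and 667 with berberine, against 1994 and 1664 in control at its first probe and 32.9 and 27.2 with berberine, against 1565 and 1888 in control at its second. The groups did not overlap at either probe, and the falls were 3.14-fold (log2 change -1.65, SE 0.19, adjusted p = 0.00282) and at least 18-fold (log2 change -5.85, adjusted p = 8.29e-05).

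Tenascins, periostin and hevin were also lower. Tnc, tenascin C, a glycoprotein of remodelling tissue, read 880.4 and 934 with berberine, against 2578 and 3231 in control, with both berberine arrays below the control arrays (log2 change -1.67, SE 0.16, adjusted p = 0.00151). Sparcl1, or hevin, a relative of SPARC, read 24884 and 25558 with berberine, against 68694 and 82771 in control (log2 change -1.58, SE 0.15, adjusted p = 0.00138). Postn, periostin, which helps collagen to be crosslinked, read 69072 and 61385 with berberine, against 135787 and 144421 in control (log2 change -1.10, SE 0.13, adjusted p = 0.00301). Matn2, a filament-forming matrilin, read 4836 and 4625 with berberine, against 9685 and 8452 in control (log2 change -0.94, adjusted p = 0.00522). Tnxb, the tenascin whose loss loosens connective tissue, read 372 and 434 with berberine, against 814 and 616 in control (log2 change -0.82, adjusted p = 0.0223). None of these 5 genes overlapped between groups, as was so for 74.8% of all probes.

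In the same role group, osteopontin and other thrombospondins were higher. Spp1, osteopontin, a secreted integrin ligand, read 103291 and 95300 with berberine, against 28525 and 27907 in control, and its berberine arrays were both above its control arrays (log2 change 1.81, SE 0.12, adjusted p = 0.000591). Thbs1, a thrombospondin that activates latent TGF-beta, read 11354 and 11904 with berberine, against 6202 and 5278 in control, the opposite direction to Thbs2 (log2 change 1.02, SE 0.14, adjusted p = 0.00454). Thbs3 read 2672 and 2659.7 with berberine, against 1127 and 1400.2 in control (log2 change 1.09, adjusted p = 0.00503). Sparc, a collagen-binding glycoprotein related to hevin, read 111876 and 119086 with berberine, against 139595 and 109506 in control, so its groups overlapped and it did not pass (log2 change -0.10, adjusted p = 0.657), and its change was 0.47 after centring. Without berberine replicate 1 the calls of Thbs1, Thbs3, Tnxb and Matn2 were lost (adjusted p = 0.0645 to 0.162), without berberine replicate 2 those of the same 4 genes and Postn (adjusted p = 0.0573 to 0.112), and without control replicate 1 that of Tnxb (adjusted p = 0.0716). After centring, Postn was at -0.49 (adjusted p = 0.0632) and Matn2 at -0.32 (adjusted p = 0.184). As deposited, the data gave no call for Matn2 or Thbs3, at adjusted p = 0.0549 and 0.0686, and scaling on the 75th percentile gave none for Matn2 (adjusted p = 0.0618).

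**Figure D2:**
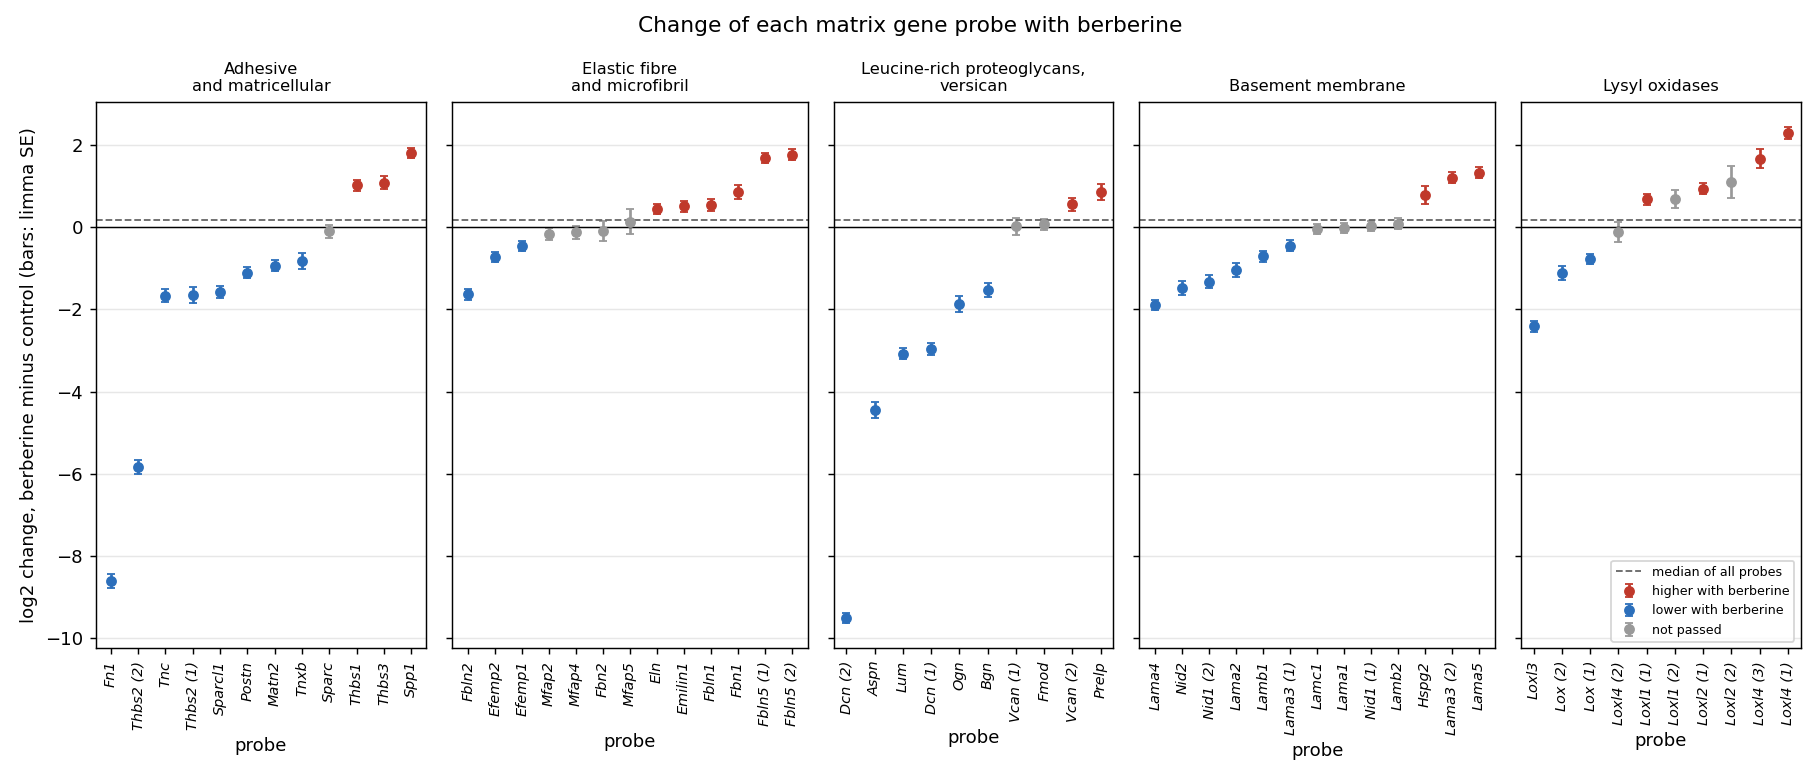
Log2 change (berberine minus control) of each probe with limma's standard error, by role, coloured by whether it was higher, lower or not past the adjusted threshold, with the median of all probes (0.17) dashed. The leucine-rich proteoglycans and the adhesive glycoproteins hold the changes beyond -3, and the largest rise is the first Loxl4 probe at 2.30.

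Small leucine-rich proteoglycans, which coat collagen fibrils, were the role group with the lowest median, -1.70 over 10 probes that include versican. Lower probes numbered 6, with 2 higher and 2 not past the threshold, where 17.7% of all probes were lower and 27.1% higher. Dcn, decorin, which limits fibril width and binds TGF-beta, read 12565 and 12916 with berberine, against 90589 and 110086 in control at its first probe and 89.8 and 80.5 with berberine, against 61016 and 63328 in control at its second. Both probes separated the groups, but the size differed. Decorin was 7.84 times lower at the first (log2 change -2.97, SE 0.15, adjusted p = 0.00026) and at least 652-fold lower at the second (log2 change -9.51, SE 0.13, adjusted p = 5.77e-05). Lum, lumican, a keratan sulfate proteoglycan, read 1108 and 1232 with berberine, against 10048 and 9617 in control (log2 change -3.07, SE 0.13, adjusted p = 0.00017). Aspn, asporin, which competes with decorin for collagen, read 1142 and 1557 with berberine, against 30834 and 27188 in control, which is 21.7 times lower (log2 change -4.44, SE 0.19, adjusted p = 0.000191). All berberine values of these 3 genes lay below all control values.

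Biglycan and osteoglycin fell by less, and prolargin ran the other way. Bgn, biglycan, the closest relative of decorin, read 78594 and 78260.3 with berberine, against 199266 and 257987 in control (log2 change -1.53, SE 0.17, adjusted p = 0.00227). Ogn, osteoglycin, read 2922 and 2767 with berberine, against 8788 and 12167 in control (log2 change -1.86, SE 0.19, adjusted p = 0.00192), and its control arrays differed more than its berberine arrays did. Prelp, prolargin, which anchors basement membranes to connective tissue, read 33909.5 and 39289.7 with berberine, against 17185 and 23699 in control (log2 change 0.85, SE 0.20, adjusted p = 0.0238), higher in both berberine arrays. Fmod, fibromodulin, overlapped between groups, at 189 and 165 with berberine, against 167 and 167 in control (log2 change 0.08, adjusted p = 0.66). Vcan, versican, a large proteoglycan that binds hyaluronan, did not pass at its first probe, which read 47289.8 and 46747 with berberine, against 55345 and 38565 in control (log2 change 0.03, adjusted p = 0.93), though after centring it was at 0.80 and passed (adjusted p = 0.0485). Its other probe read 985 and 1169 with berberine, against 668 and 794 in control and passed (log2 change 0.56, adjusted p = 0.0437), at -0.02 in the deposited values. Without berberine replicate 2 the calls of Bgn, Ogn, Prelp and the second Vcan probe were lost (adjusted p = 0.0574 to 0.234), without berberine replicate 1 those of the last 3 (adjusted p = 0.0505 to 0.125), without control replicate 1 those of Prelp and Vcan (adjusted p = 0.0689 and 0.139) and without control replicate 2 that of Vcan (adjusted p = 0.0738). The Vcan call was also lost in the deposited values and after scaling on the 75th percentile (adjusted p = 0.962 and 0.357).

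Several of these genes lie next to each other, by the order of protein-coding genes in RefSeq on GRCm38.p6. Genes in this paragraph other than Dcn, Lum, Aspn, Ogn, Prelp and Fmod were picked for their position after values had been seen. On chromosome 10, Dcn is followed by Lum and Kera (keratocan, a corneal proteoglycan), and Kera read 80 and 99.4 with berberine, against 326 and 216 in control, a fall of at least 2.79-fold (log2 change -1.57, adjusted p = 0.00662) beside the falls of Dcn and Lum. On chromosome 13 the order is Ecm2, Aspn, Omd, Ogn. Between the lower genes Aspn and Ogn, Omd (osteomodulin) read 336 and 358 with berberine, against 263 and 241 in control (log2 change 0.46, adjusted p = 0.0378), and Ecm2, a related matrix protein, read 209.7 and 229.8 with berberine, against 225 and 209 in control and did not pass (log2 change 0.02, adjusted p = 0.929). Kera had an adjusted p of 0.0884 and Omd of 0.146 without berberine replicate 1, and without berberine replicate 2 of 0.0714 and 0.19. The change of Omd was -0.11 in the deposited values (adjusted p = 0.812) and 0.20 after scaling on the 75th percentile (adjusted p = 0.441), so its direction depended on the scaling. On chromosome 1, Prelp, which was higher, adjoins Fmod, which did not pass.

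Genes of elastic fibres and microfibrils moved both ways, with 6 of 13 probes higher, 3 lower and 4 not past the threshold (median log2 change 0.14). For all probes the shares were 27.1% higher and 17.7% lower. Fbln5, fibulin 5, which tethers elastin to cells and to microfibrils, read 21262 and 22973 with berberine, against 7237 and 6492 in control at its first probe and 292 and 257 with berberine, against 82.6 and 78.3 in control at its second. Both probes were higher by a similar amount (log2 change 1.69, SE 0.13, adjusted p = 0.000866 at the first, log2 change 1.77, SE 0.13, adjusted p = 0.000784 at the second). The control level at the second lay under the floor, so that rise was at least 2.87-fold. Fbn1, fibrillin 1, the backbone of microfibrils, read 24179.8 and 22396 with berberine, against 11368 and 14538 in control (log2 change 0.86, SE 0.17, adjusted p = 0.0135). Emilin1, a glycoprotein at the surface of elastic fibres, read 41648 and 38206 with berberine, against 26353 and 29663 in control, a small rise that did not overlap (log2 change 0.51, adjusted p = 0.0336).

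Fibulin 2 and fibulin 4 were lower. Fbln2, a fibulin that binds fibronectin and laminins, read 18834 and 19595 with berberine, against 63844 and 55301 in control (log2 change -1.63, SE 0.14, adjusted p = 0.00103), the opposite direction to Fbln5. Efemp2, or fibulin 4, which brings lysyl oxidase to elastin, read 34080.2 and 36373 with berberine, against 56981 and 59379 in control (log2 change -0.72, adjusted p = 0.00863), and after centring its change was 0.05. Eln, elastin itself, read 1557 and 1524 with berberine, against 1065 and 1204 in control, a rise of 1.36-fold that was -0.06 on the log2 scale in the deposited values (log2 change 0.44, adjusted p = 0.0457). Fbln1, fibulin 1, read 161 and 139.8 with berberine, against 107 and 98.9 in control. Efemp1, fibulin 3, read 74.5 and 79.8 with berberine, against 107 and 104 in control. Their calls were small (log2 change 0.54, adjusted p = 0.0311 for Fbln1 and log2 change -0.45, adjusted p = 0.0354 for Efemp1), and with Efemp1 under the floor on the berberine arrays its fall was at least 1.11-fold. Fbn2, fibrillin 2, read 211 and 172 with berberine, against 164 and 248 in control (log2 change -0.08, adjusted p = 0.811). Of the microfibril-associated proteins, Mfap2 read 110.2 and 95 with berberine, against 107 and 123 in control (log2 change -0.16, adjusted p = 0.422), Mfap4 read 115 and 123 with berberine, against 143 and 116 in control (log2 change -0.12, adjusted p = 0.564) and Mfap5 read 345 and 449.5 with berberine, against 466 and 274 in control (log2 change 0.14, adjusted p = 0.728). These 4 genes overlapped between groups and did not pass. Without berberine replicate 1 the calls of Fbn1, Eln, Fbln1, Emilin1, Efemp1 and Efemp2 were lost (adjusted p = 0.0907 to 0.214), and without berberine replicate 2 the same calls were lost (adjusted p = 0.0794 to 0.191). Without control replicate 1 those of Eln, Fbln1, Emilin1 and Efemp1 were lost (adjusted p = 0.0625 to 0.0753), and without control replicate 2 those of Fbln1 and Efemp1 (adjusted p = 0.105 and 0.0613). In the deposited values the calls of Eln, Fbln1, Emilin1, Efemp1 and Efemp2 were lost (adjusted p = 0.0595 to 0.89), after scaling on the 75th percentile those of Eln, Fbln1, Efemp1 and Efemp2 (adjusted p = 0.0823 to 0.433) and after centring those of Efemp1 and Efemp2 (adjusted p = 0.56 and 0.76).

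In the basement membrane group, 6 of 13 probes were lower, 3 higher and 4 not past the threshold (median log2 change -0.03). Lower and higher shares of all probes were 17.7% and 27.1%. In this group, 1 of the higher probes lay under the floor in both berberine and control. Laminins are trimers of an alpha, a beta and a gamma chain. Lama4, the alpha chain of laminins of fat, muscle and vessels, read 2995 and 3119 with berberine, against 11529 and 11090.5 in control (log2 change -1.89, SE 0.12, adjusted p = 0.000498). Lamb1, a beta chain, read 13685 and 14385 with berberine, against 22029.8 and 23907 in control (log2 change -0.71, adjusted p = 0.00986), and after centring its change was 0.06. Lamb2, another beta chain, read 52045 and 47144 with berberine, against 44801 and 48211 in control, and Lamc1, the gamma chain that most laminins share, read 19130.5 and 20491 with berberine, against 19939 and 20538 in control. Both overlapped between groups and did not pass (log2 change 0.09, adjusted p = 0.601 for Lamb2 and log2 change -0.03, adjusted p = 0.855 for Lamc1), while after centring Lamb2 was at 0.86 (adjusted p = 0.0119) and Lamc1 at 0.74 (adjusted p = 0.0114), which passed.

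The other laminin alpha chains differed in direction. Lama5, of epithelial and vascular membranes, read 562 and 659 with berberine, against 236 and 248 in control, higher on both berberine arrays (log2 change 1.33, SE 0.14, adjusted p = 0.00204). Lama2, the alpha chain of muscle laminin, read 107 and 109.9 with berberine, against 257 and 192 in control (log2 change -1.04, SE 0.18, adjusted p = 0.00906). Lama1, the alpha chain of embryonic basement membranes, read 189 and 185 with berberine, against 189.6 and 187 in control and overlapped (log2 change -0.01, adjusted p = 0.958). Lama3 had a probe at 80 and 92.6 with berberine, against 117 and 117 in control (log2 change -0.45, adjusted p = 0.0495), a fall of at least 1.23-fold, and a second whose means lay under the floor in both groups (101 and 88.3 with berberine, against 38.6 and 43.1 in control) and that is given no fold.

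The linkers of the basement membrane split between the nidogens. Nid2, which ties laminin to collagen IV, read 13382 and 13069 with berberine, against 31932 and 41954 in control (log2 change -1.47, SE 0.17, adjusted p = 0.00281). Nid1, its relative, read 65774 and 65655 with berberine, against 61810.1 and 67171 in control at its first probe, where the groups overlapped (log2 change 0.03, adjusted p = 0.871; 0.78 with adjusted p = 0.0116 after centring, which passed), and 95.8 and 82.8 with berberine, against 246 and 202 in control at its second, a fall of at least 2.34-fold (log2 change -1.32, adjusted p = 0.0032). Hspg2, perlecan, the heparan sulfate proteoglycan of basement membranes, read 14297 and 17542 with berberine, against 10833 and 7679 in control, higher on both berberine arrays (log2 change 0.80, SE 0.22, adjusted p = 0.0376). Without berberine replicate 1 the calls of Lama2, both Lama3 probes, Lamb1, Nid2 and Hspg2 were lost (adjusted p = 0.0546 to 0.234). Without berberine replicate 2 those of Lama2, the first Lama3 probe, Lamb1, Nid1, Nid2 and Hspg2 were lost (adjusted p = 0.0621 to 0.231). Without control replicate 1 the first Lama3 call was lost (adjusted p = 0.107), and without control replicate 2 that of Lama3 and of Hspg2 (adjusted p = 0.129 and 0.124). In the deposited values the calls of Lama3 (first probe), Lama5, Lamb1 and Hspg2 were lost (adjusted p = 0.0716 to 0.185), and those of the same Lama3 probe and Lamb1 were lost after centring (adjusted p = 0.568 and 0.719) and after scaling on the 75th percentile (adjusted p = 0.259 and 0.452).

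The lysyl oxidase family, copper enzymes that start the crosslinks of collagen and elastin, held a fall of Lox and Loxl3 and rises of Loxl1, Loxl2 and Loxl4. Of 10 probes, 4 were higher, 3 lower and 3 not past the threshold (median log2 change 0.69), where 27.1% of all probes were higher and 17.7% lower. Loxl4 read 13815 and 15007 with berberine, against 3197 and 2666 in control at its first probe and 8257 and 7159 with berberine, against 2932 and 1982 in control at its last. Both separated the groups (log2 change 2.30, SE 0.15, adjusted p = 0.000521 and log2 change 1.67, SE 0.23, adjusted p = 0.00426). The remaining Loxl4 probe read 2810.5 and 2415 with berberine, against 2286 and 3500.4 in control, with overlapping groups (log2 change -0.12, adjusted p = 0.716), so 2 of its 3 probes rose. Loxl3, which acts on collagen during development, read 74.5 and 66.2 with berberine, against 397 and 351 in control, a fall of at least 3.92-fold to under the floor (log2 change -2.41, SE 0.14, adjusted p = 0.00039).

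Lox, the founding member, was lower at both of its probes, which read 31738 and 31867 with berberine, against 51905 and 56354 in control and 2510.4 and 2539.8 with berberine, against 6239 and 4724 in control (log2 change -0.77, SE 0.12, adjusted p = 0.00738 and log2 change -1.10, SE 0.17, adjusted p = 0.00689). After centring the first was at 0.01 (adjusted p = 0.977) and the second at -0.66 (adjusted p = 0.0527), and the first call was also lost with the data as deposited (adjusted p = 0.138) and after scaling on the 75th percentile (adjusted p = 0.345). Loxl1, needed for elastic fibre renewal, read 4521 and 4254 with berberine, against 2913 and 2563 in control at the probe that passed (log2 change 0.68, adjusted p = 0.0139) and 555 and 507 with berberine, against 400.1 and 269 in control at the probe that did not (log2 change 0.69, adjusted p = 0.0569). Loxl2, which crosslinks collagen IV, read 889 and 772 with berberine, against 429 and 434 in control at the probe that passed (log2 change 0.94, adjusted p = 0.00508) and 262 and 216 with berberine, against 164 and 74.3 in control at the other, whose control arrays lay far apart (log2 change 1.11, adjusted p = 0.075). For Loxl1 and Loxl2 the berberine arrays were above the control arrays at all 4 probes, but groups did not overlap at 74.8% of all probes. As deposited, the data gave no call for Loxl1 or Loxl2 (adjusted p = 0.205 and 0.375). Without berberine replicate 1 the calls of both Lox probes, Loxl1, Loxl2 and the last Loxl4 probe were lost (adjusted p = 0.0664 to 0.126), and without berberine replicate 2 the same calls were lost (adjusted p = 0.0551 to 0.106).

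**Figure D3:**
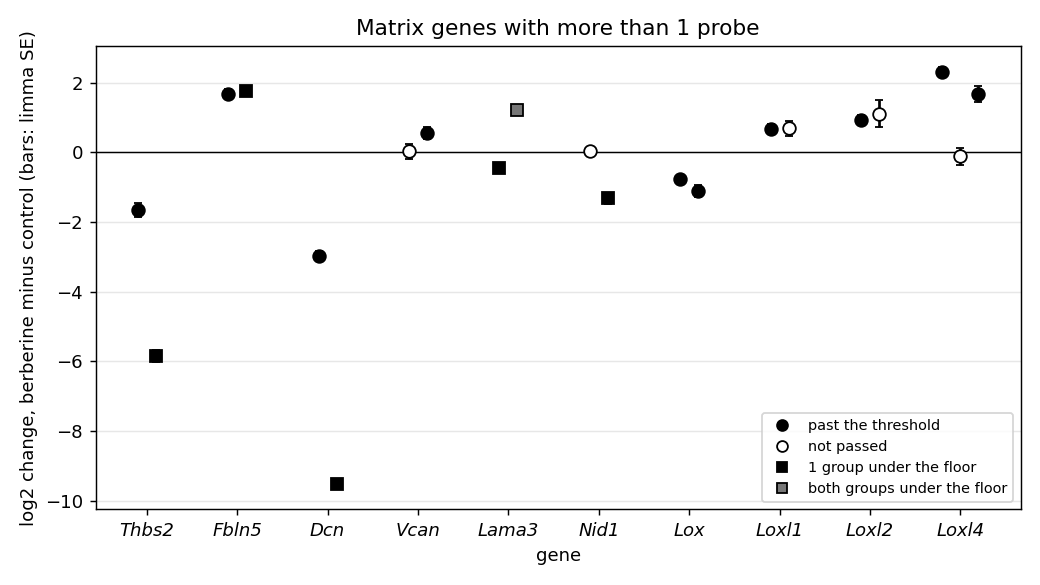
Log2 change (berberine minus control) with limma's standard error at each probe of the 10 genes that have more than 1, where squares mark probes with a group under the floor and open symbols mark probes that did not pass. The probes of Fbln5, Lox, Loxl1 and Loxl2 lie close together, while those of Dcn (-2.97 and -9.51) and Thbs2 (-1.65 and -5.85) have 1 direction and unequal sizes.

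Of the 47 genes, 37 rest on 1 probe, 9 on 2 and 1 on 3. All probes of the gene passed in the same direction for Thbs2, Fbln5, Dcn and Lox. For Vcan, Nid1, Loxl1, Loxl2 and Loxl4 some probes passed and 1 did not, and the 2 Lama3 probes were called in opposite directions with the means of the higher one under the floor in both groups. The falls of Fn1, Aspn, Lum, Lama4 and Loxl3 could not be set against another probe of the gene. All 44 called probes had berberine and control arrays that did not overlap, which the call itself makes close to certain. Among the 14 that did not pass, 2 also had no overlap. The share over all probes of the array, called or not, was 74.8%, so the 44 cannot be set against it.

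**Figure D4:**
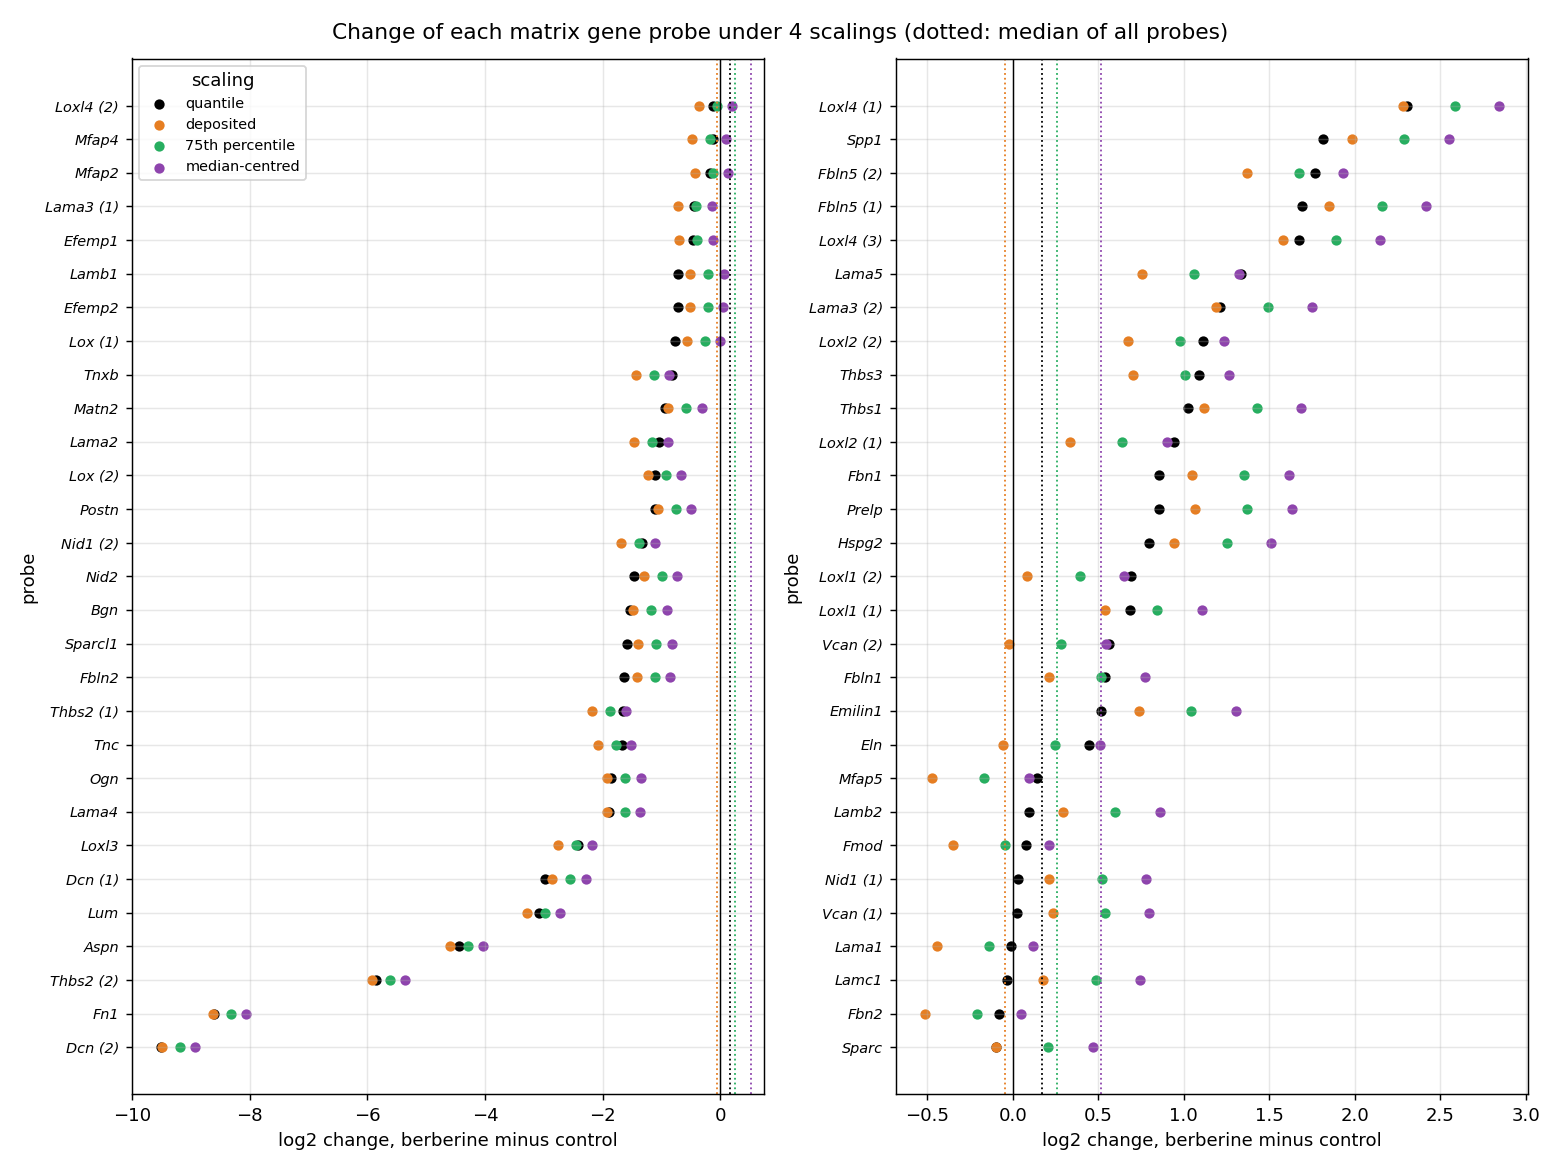
Log2 change (berberine minus control) of each probe under 4 scalings (quantile, as deposited, 75th percentile, median-centred), with the median of all probes under each scaling dotted. Fn1, Dcn, Aspn, Lum, Spp1 and Fbln5 keep their sign under the 4 scalings, while Eln, Lamb1, Efemp2 and the first Lox probe lie near 0 under some of them.

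Of 79 probes for 70 of 74 other matrix glycoproteins and proteoglycans, 26 were higher, 14 lower and 39 did not pass (median log2 change 0.21), where 27.1% of all probes were higher and 17.7% lower. The shares of this list are near those of the array. In the deposited values 11 probes were higher and 14 lower, where 9.07% of all probes were higher and 16.2% lower. The 6 named by the smallest adjusted p were Svep1, a large adhesion protein at 85.3 and 107 with berberine, against 3884 and 2904 in control (log2 change -5.13, adjusted p = 0.000153), Tgfbi, a TGF-beta induced matrix protein at 11112 and 12420.3 with berberine, against 2464 and 2529 in control (log2 change 2.23, adjusted p = 0.000376), and Ccn2, connective tissue growth factor, at 1766 and 1503 with berberine, against 281 and 307 in control (log2 change 2.47, adjusted p = 0.000394). The others were Sdc4 and Sdc1, cell-surface heparan sulfate proteoglycans of the syndecan family, and Hapln4, a hyaluronan link protein. Sdc4 read 492 and 471 with berberine, against 5705 and 9014 in control (log2 change -3.90, adjusted p = 0.000465), Sdc1 630.4 and 616 with berberine, against 1938 and 2048 in control (log2 change -1.68, adjusted p = 0.000687) and Hapln4 4563 and 4353 with berberine, against 1057 and 841 in control (log2 change 2.24, adjusted p = 0.000672). Tgfbi, Ccn2 and Hapln4 were thus higher, and Svep1 and both syndecans lower. Their groups did not overlap, which the rule that named them required. Fewer probes of this list were called in each direction without berberine replicate 1 or 2, and shares of all probes by direction were not worked out for those fits.

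Enzymes that modify matrix proteins or build glycosaminoglycan chains were lower at 19 of 50 probes, higher at 15 and not past the threshold at 16 (median log2 change -0.04), for 45 of 50 listed genes, where 17.7% of all probes were lower and 27.1% higher. After centring the list had 16 lower and 23 higher probes, where 12.5% of all probes were lower and 40.5% higher. At least 8-fold lower were 7 of the 50 probes, against 2.92% of all probes. The rule named 6 genes by a probe that was lower. P4ha2, a subunit of the prolyl hydroxylase of collagen, read 15.3 and 19.1 with berberine, against 3369.9 and 2436 in control at the named probe, a fall of at least 30.1-fold (log2 change -7.39, adjusted p = 8.29e-05). A further P4ha2 probe was also lower, at 57.8 and 39.8 with berberine, against 1937 and 1415 in control (log2 change -5.11, adjusted p = 0.000255), but the gene's remaining probe was higher, at 5709.7 and 5657 with berberine, against 3536 and 2851 in control (log2 change 0.84, adjusted p = 0.011). P3h1, another collagen prolyl hydroxylase, read 25.9 and 39.8 with berberine, against 2082 and 2376 in control at the named probe, a fall of at least 23.3-fold (log2 change -6.11, adjusted p = 0.000145). Its other probe overlapped between groups and did not pass, at 7066 and 8039 with berberine, against 8115 and 6316 in control (log2 change 0.07, adjusted p = 0.757). The probes of these 2 genes therefore did not share a direction or a call. Pcolce, the enhancer of procollagen processing, read 6725 and 6179 with berberine, against 138112 and 103911 in control (log2 change -4.22, adjusted p = 0.000181). Ext2 and Extl3, which act on heparan sulfate chains, read 205 and 246 with berberine, against 8218 and 11669.7 in control (log2 change -5.45, adjusted p = 0.000148) and 675 and 737 with berberine, against 9565 and 8255 in control (log2 change -3.66, adjusted p = 0.000141). The other Extl3 probe was 1.88 times lower, against 12.6 times at the named one, at 4203 and 4786 with berberine, against 9387 and 7583 in control (log2 change -0.91, adjusted p = 0.0105). Chst12, a chondroitin sulfotransferase, read 292 and 317 with berberine, against 9212 and 11312 in control (log2 change -5.07, adjusted p = 9.34e-05). Both berberine arrays were below both control arrays at the 6 named probes, but the rule that named them required groups without overlap. Fewer enzyme probes were called in each direction without berberine replicate 1 or 2, and shares of all probes by direction were not worked out for those fits.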

How the data were processed

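Per the labels' protocols, each of the 2 berberine and 2 control RNAs was put on its own 1-colour array with Cy5 as the dye. The authors deposited linear probe intensity values in whole numbers. How they were scanned, background-corrected and scaled is not stated in the sources used here, and their zero point is unknown. Deposited intensities had a median of 237 and 280 (berberine) and of 423 and 350 (control). Arrays were quantile-normalized on the log2 scale with no pseudocount and fitted with limma 3.58.1 (R 4.3.3, lmFit and eBayes), with 2 residual and 2.89 prior degrees of freedom. Of 26423 probes, 15 at or under 0 on an array were left out, none of them a probe of the 47 genes. The platform table gives 1 symbol to 20377 probes and leaves 6046 unnamed. After removal of the 15, 18203 named probes matched a current symbol, 2126 an older one and 38 kept the platform's. With 2 arrays a group, the smallest two-sided p an exact permutation test allows is 0.333, so each p rests on limma's pooled spread. Replicate arrays differed by a median of 0.12 (berberine) and 0.20 (control) in log2 intensity. No batch is named in the labels. All 47 genes were named at every probe, and from each of 2 further lists the 6 genes with the smallest adjusted p among called probes with a group above the floor and no overlap. The genes, lists, floor and tests were chosen with earlier results of these data known. The number of arrays limits the precision.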

Additional observations from a re-analysis of the deposited data

How the results depend on the processing

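The array-wide count of 11838 called probes was 6687 in the deposited values and 5806 with at least a 2-fold change added. In the deposited values the higher calls numbered 9 of the 58 matrix probes, 11 of the 79 other matrix probes and 4 of the 50 enzyme probes. The share over all probes was 9.07%. With the 2-fold rule the higher calls were 9, 11 and 5, and lower calls of other matrix probes were 9. Of all probes 10.8% were higher and 11.1% lower by that rule. Centring gave 23 higher enzyme probes, where 40.5% of all probes were higher. With 1 array left out at a time there were 3346 to 10787 calls in all. For the 58 probes it gave 5 to 15 higher and 12 to 24 lower, for other matrix probes 7 to 24 higher and 4 to 12 lower, and for enzyme probes 2 to 14 higher and 10 to 20 lower. The lone array was assumed to vary like the other group. Why fewer calls remained without a berberine array was not tested. With the replicate number as a block, 12760 probes passed, 19 of the 58 higher and 24 lower. The deviations of same-numbered arrays correlated across probes at 0.0035. This value cannot show whether same-numbered arrays share a culture or a day, which the labels do not state. Among probes called before or after the change of scaling, Efemp2 (0.052), Lamb1 (0.061), Lamc1 (0.74) and the first Lox probe (0.0051) changed sign with centring. Eln (-0.058) and the second Vcan probe (-0.023) did so in the deposited values. Some probes called under neither scaling, such as Sparc with centring and Fmod in the deposited values, also changed sign. Of the 44 calls, 13 were lost with their sign kept in the deposited values, 9 with the 75th percentile and 5 with centring. An intensity trend, log2(value + 16) and the removal of dim probes reversed none of the 44 called changes. Values near the floor limit what can be read from dim probes.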
